A study of Mus musculus with 3 samples.

Results

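Low-Ins1 beta cells, as used here, were the deeply sequenced insulin-positive barcodes of the islets taken 1 week after Taf4 inactivation in which Ins1 was scarce while Ins2 was still abundant. A barcode counted as a member when it held at least 8000 unique molecular identifiers (UMIs), mt- genes were under 15% of them, Ins2 was 5% or more, Gcg under 2%, Sst under 1%, the stress factor Ddit3 under 0.25% and Ins1 under 4%. Of the 2295 barcodes of the 1-week library, 796 passed the depth limit, 505 also passed the mt- and Ins2 limits, 336 passed all limits but that on Ins1, and 249 were members. They made up 10.8% of the library (exact binomial 95% interval 9.61 to 12.2) and came from a series of 25524 barcodes. Because measured levels of Ins1, Ins2, Ddit3, Gcg, Sst, mt- genes and depth chose the cells, those values are given only as a description.

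Isolated Langerhans islets of C57/Bl6 mice were profiled by 10X Genomics Chromium 3′ single-cell RNA-seq, in 1 library per group. The WT library, with genotype Wild type, came from 300 islets of 1 mouse, and the TAF4 KO libraries came from 300 islets each, pooled from 2 mice at 1 week or at 5 weeks after inactivation. In the mutants, floxed Taf4 alleles were recombined by a tamoxifen-inducible Cre-ERT2 under insulin promoter sequence (given as Ins1 in one passage and as Ins in another), with tamoxifen on 3 consecutive days at 11 to 13 weeks of age, so the deletion was aimed at beta cells and not at the other islet cells. For the genotypes compared, the study describes the same driver and tamoxifen in Taf4+/+ controls, but the label of the WT library does not say whether that mouse carried Cre or received tamoxifen. Since each group is 1 library without a replicate, conditions were not tested against each other, and what comes from genotype, from the animals and from the library cannot be told apart. Every interval printed here covers counting error only.

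Beta cells make, process and store insulin and release it when glucose entering the cell raises ATP and closes potassium channels. Mice carry a pair of insulin genes: Ins2, the ancestral gene with a full set of introns, and Ins1, a retroposed copy that is expressed in beta cells only. Taf4 is a subunit of TFIID, the complex that recognises core promoters for RNA polymerase II, and Mafa, Pdx1 and Nkx6-1 are the transcription factors that bind insulin promoters and hold the mature beta cell identity. The integrated stress response is the programme in which phosphorylated eIF2α favours translation of Atf4, which with Ddit3 switches on amino acid synthesis, transport and tRNA charging genes.

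WT beta cells were the WT barcodes with Ins2 20% or more, Gcg under 3% and Sst under 2% of the UMIs, without a depth or mt- limit. The 3 libraries differed in ways that touch every comparison with WT. No barcode in the WT library had over 1489 detected genes and none at 5 weeks over 1999, whereas the 1-week library reached 5986. The paper describes an upper limit on the genes detected in a cell. Whether that limit shaped the WT and 5-week counts is not stated, but no more gene-rich cell of either library was there to compare. The members had a median of 26375 UMIs and 4898 genes against 1656 UMIs and 390 genes in WT beta cells. The WT mouse is described as male, but WT beta cells held 10784 UMIs of the X-inactivation RNA Xist against 5 in the members, and the Y-linked Ddx3y, with 440 UMIs in the members, was not listed in the WT table. These counts go against the description of the WT mouse, so "WT" below means the library labelled Wild type. The 1-week library shared 2 barcodes with WT and 5 with the 5-week library. Acinar digestive enzyme transcripts were abundant in WT beta cells, with the 11 listed acinar genes summing to 16553 CPM there (counts per 1000000 UMIs) and 6.26 CPM in the members.

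Ins1 (chr19:52264297-52265015, RefSeq on GRCm38.p6) was 1.38% of all UMIs of the members, against 15.4% in WT beta cells. In single cells the Ins1 share ran from 0.00428% to 3.999% with a median of 0.658%, and 107 members (43.0%) lay under 0.5%. Only 15 of 8267 WT beta cells (0.181%) lay under 4%, while 4910 of 5307 5-week beta cells (92.5%) did. Ins2 (chr7:142678656-142679726) was 34.6% of the UMIs of the members and 43.8% in WT. The Ins2 limit was 5% for members and 20% for WT beta cells, so unlike limits bear on that contrast. Ins1 was 3.85% of the insulin transcripts in the members and 26.0% in WT beta cells. Per cell, the members held 385 Ins1 UMIs and 9617 Ins2 UMIs. Deep alpha cells of the same library (Gcg 10% or more, Ins2 under 5%, 156 cells) held 6.85 and 92.4. These alpha values give at most the level of free insulin RNA in such cells. Insulin RNA made by those cells or brought in by doublets was not told apart from it. Iapp, the peptide co-secreted with insulin, was 4.06% of the UMIs of the members, 3.66% in the 87 beta cells of the same library that met every limit but kept Ins1 at 4% or more, and 8.63% in WT. The cut runs through a continuum and not a gap: the member nearest the limit had 3.999% Ins1 and the nearest cell beyond it 4.07%. The members nearest the other limits had 0.249% Ddit3 (next cell outside 0.254%), 5.003% Ins2 (4.93%) and 8115 UMIs (7962).

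**Figure D1:**
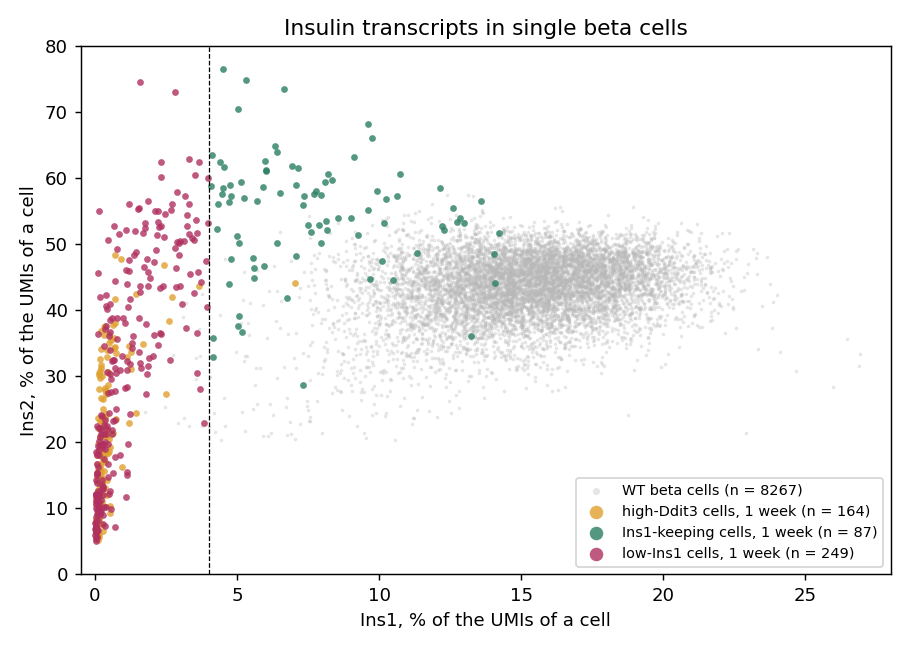
Ins1 (x axis) against Ins2 (y axis), each as a percent of all UMIs of a cell, for 249 low-Ins1 cells, 87 Ins1-keeping cells and 164 high-Ddit3 cells of the 1-week library and 8267 WT beta cells; the dashed line is the 4% limit. WT cells sit in one cloud around a median of 15.3% Ins1 and 44.0% Ins2, while the 1-week cells trail from its left edge down to almost no Ins1, with the members' Ins2 spreading from 5.003% to 74.5%.

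Insulin RNA took a different share of the transcriptome in each group, 40.0% of the UMIs being hormones in the members, 66.6% in Ins1-keeping cells and 68.0% in WT beta cells. All other levels are therefore CPM of the UMIs left once Ins1, Ins2, Gcg, Sst, Ppy, Pyy, Iapp and Ghrl were taken out, and a log2 ratio is that of the UMIs summed over the cells of each group, with its exact conditional 95% interval in parentheses. A gene was compared when both groups together held 100 or more UMIs, and called higher or lower at a 2-fold difference.

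The label's markers stood at beta cell levels. Nkx6-1, which represses the alpha cell programme, was at 431 CPM in the members, 379 CPM in WT beta cells and 34.6 CPM in deep alpha cells. Pcsk1, the convertase that cuts proinsulin, was at 301, 435 and 1.94 CPM in these groups, and Hadh, the mitochondrial enzyme that restrains amino acid-stimulated insulin release, at 1088, 812 and 16.3 CPM. The wider list of beta defining markers without hormones stood lower than in WT. Of 10 compared, none was 2-fold higher and 6 were 2-fold lower, with a median log2 ratio of -1.03. The list summed to 3853 CPM in the members, 6990 CPM in WT beta cells and 127 CPM in deep alpha cells. Genes the rule did not use thus set the members apart from alpha cells, but many of them were below their WT level. Of other cell types' markers, none of the 7 mesenchymal and 5 erythroid genes had a UMI in the members, endothelial genes summed to 4.57 CPM, immune genes to 39.5 CPM and delta genes to 166 CPM (WT beta cells 10.3, 289.5 and 335 CPM). Alpha markers other than Gcg summed to 466 CPM in the members, below the 3391 CPM of WT beta cells and the 10515 CPM of deep alpha cells. Ttr, the most abundant of them, was at 161 CPM in the members and 2884 CPM in WT beta cells. Free RNA was not measured in the WT library, so the WT values of other cell types' markers are not read as expression by its beta cells. The genes normally silenced in beta cells, known as disallowed genes, stayed near 0: 15 of 20 had no UMI in the members and the 20 summed to 14.7 CPM, against 15.2 CPM in WT.

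Taf4 counts overlapped between the groups within counting error. The targeted gene (chr2:179912146-179976646, GRCm38.p6) was at 15.2 CPM in the members (63 UMIs), 14.6 CPM in WT beta cells (75 UMIs) and 17.5 CPM in Ins1-keeping cells (22 UMIs), a log2 ratio of 0.05 (-0.45 to 0.56) over WT. Reads were taken from the 3′ end and the sources used here do not place the floxed exons, so this count does not check the deletion.

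Across the transcriptome the members differed widely from WT beta cells. Of 8310 genes compared, 1365 were 2-fold higher (16.4%) and 572 were 2-fold lower (6.88%). The median log2 ratio over all genes was 0.32 (quartiles -0.20 and 0.79), and once ratios were centred on it the split turned to 627 higher and 934 lower, so list medians below are to be read against 0.32 and not against 0. Deep alpha cells of the same library, which the driver does not target, also differed from WT alpha cells (2677 barcodes, Gcg 20% or more and Ins2 under 10%): of 5063 genes compared, 1013 were higher (20%) and 430 lower (8.49%), with a median of 0.29. Values of that alpha comparison are set beside the lists below, because the alpha and beta cells of a library share animals and sequencing. Leaving out acinar enzymes and Xist, the genes at the low end were Fosb, Hspb1, Defb1, C2cd4a, Gm16315, Fkbp11 and Trpm5. The genes at the high end were Stbd1, Id3, Phlda3, Sema6a, Fam212b, Dock5, Trib3, Mt2, Fam129a, Ddit3, Dglucy, Hist2h4, Flrt1, Gdf15 and Steap1.

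Genes of the integrated stress response stood high in the members, although cells with the most Ddit3 had been left out by the rule. Of 25 genes compared 21 were 2-fold higher and 1 lower, with a median log2 ratio of 1.81, and 18 were 2-fold higher after centring. Trib3, a pseudokinase induced by Atf4 and Ddit3, was at 173 CPM in the members and 8.58 CPM in WT, a log2 ratio of 4.33 (3.89 to 4.81). Over single members Trib3 had a median of 137 CPM and a highest value of 904 CPM. Sesn2, a stress-induced inhibitor of mTORC1, was at 117 against 16.2 CPM, a log2 ratio of 2.85 (2.51 to 3.20). Atf5, a transcription factor translated under eIF2α phosphorylation, was at 824 against 172 CPM (log2 ratio 2.26, 2.15 to 2.37), and Nupr1, a stress-induced chromatin cofactor, at 2472 against 528 CPM (log2 ratio 2.23, 2.17 to 2.29). Ddit3, held down by the rule in the members, was still at 1922 against 140.0 CPM. Genes of the list were high in the alpha cells of this library too. Of 22 list genes compared in both cell types, 18 were 2-fold higher in 1-week than in WT alpha cells with a median of 1.93, beside 18 and 1.74 in the members. Atf5, for example, was at 546 CPM in 1-week and 16.5 CPM in WT alpha cells. For these genes the part of the library and of the animals in the difference from WT cannot be told apart from that of Taf4.

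The promoters of 3 of these genes are shown because the element that Atf4 binds with a C/EBP partner can be read in them. They are the 250 bases before the RefSeq start (GRCm38.p6), 5′ to 3′ on the gene's strand, with the letters TGATGNAA or their reverse complement in capitals. Asns, asparagine synthetase, lies at chr6:7693210-7693459 on the minus strand, Chac1, which degrades glutathione, at chr2:119350992-119351241 on the plus strand, and Nupr1 at chr7:126625471-126625720 on the minus strand. Asns and Chac1 were chosen after their values were seen.
Asns: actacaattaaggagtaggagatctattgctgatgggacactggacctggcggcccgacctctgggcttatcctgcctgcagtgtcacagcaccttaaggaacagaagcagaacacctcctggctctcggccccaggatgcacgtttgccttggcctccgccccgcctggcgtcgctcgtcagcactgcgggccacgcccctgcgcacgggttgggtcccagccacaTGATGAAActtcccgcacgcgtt
Chac1: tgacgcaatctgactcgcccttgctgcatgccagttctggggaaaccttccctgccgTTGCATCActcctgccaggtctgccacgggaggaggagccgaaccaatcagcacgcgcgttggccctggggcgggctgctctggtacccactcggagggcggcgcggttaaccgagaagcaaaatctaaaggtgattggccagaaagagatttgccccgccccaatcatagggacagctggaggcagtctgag
Nupr1: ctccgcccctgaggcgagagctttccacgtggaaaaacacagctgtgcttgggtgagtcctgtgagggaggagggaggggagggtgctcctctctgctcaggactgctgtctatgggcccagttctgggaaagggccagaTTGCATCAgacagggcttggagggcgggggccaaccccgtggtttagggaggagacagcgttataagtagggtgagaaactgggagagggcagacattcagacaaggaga
The motif was found in 6 of 18 list genes that were 2-fold higher and had a promoter entry (33.3%), namely Aars, Asns, Chac1, Gars, Nupr1 and Vldlr. Trib3, Atf5, Ddit3 and Sesn2 had no match. Over the whole list, raised or not, it was found in 9 of 23 genes with an entry (39.1%). The share was thus no greater among the raised genes than over their list. It was found in 2.37% of the 6612 genes compared with WT that had an entry and in 3.91% of all 27025 genes with one. Whether Atf4 raised these genes was not tested. A match is a run of letters and not a measured binding site. Asns was at 363 against 82.7 CPM (log2 ratio 2.13, 1.98 to 2.29) and Chac1 at 173 against 27.7 CPM (log2 ratio 2.64, 2.38 to 2.91).

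Transcripts of p53 targets were another group on the high side, whereas the antioxidant and metallothionein genes were mixed. Of 12 p53 targets compared 8 were 2-fold higher and 1 lower, with a median of 1.47. Phlda3, a p53-induced inhibitor of Akt, was at 103 CPM in the members, 3.51 CPM in WT and 25.4 CPM in Ins1-keeping cells. Cdkn1a, which encodes the cell cycle inhibitor p21, was at 398 against 40.2 CPM (log2 ratio 3.31, 3.1 to 3.52), and Gdf15, a stress-induced secreted factor, at 30.1 against 2.73 CPM (log2 ratio 3.46, 2.66 to 4.37). Bax, the mitochondrial pore protein and the second most abundant of the list, was at 296 against 325 CPM. In 1-week alpha cells 7 of 11 were 2-fold higher than in WT alpha cells with a median of 1.43, and Gdf15 reached 285 against 6.74 CPM there. Of 17 antioxidant and metallothionein genes 8 were higher and 2 lower, 7 lay below 0, and the median of 0.40 was near the 0.32 of all genes. The metal-binding Mt1 was at 9892 against 2148 CPM and Mt2 at 3256 against 229 CPM (log2 ratio 3.83, 3.74 to 3.91), while Txnip, the glucose-induced inhibitor of thioredoxin, was lower at 56.8 against 269 CPM (log2 ratio -2.24, -2.45 to -2.04). Mt2 was at 1271 against 39.7 CPM in alpha cells, so it too stood high in the 1-week library in both cell types. Txnip stood low in both, at 80.5 against 366 CPM in alpha cells.

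Immediate early genes and inducible heat shock genes stood on the low side. Of 14 AP-1 and immediate early genes none was 2-fold higher and 10 were lower, with a median of -1.87. Fos was at 37.3 CPM in the members and 662 CPM in WT (log2 ratio -4.15, -4.39 to -3.92), Fosb at 4.33 against 349.8 CPM (log2 ratio -6.33, -7.09 to -5.67), and Jund, the most abundant of the list, at 1077 against 661 CPM. Of 13 heat shock genes 8 were lower and 1 higher (median -1.46). The co-chaperone Dnajb1 was at 21.7 against 619 CPM (log2 ratio -4.84, -5.15 to -4.53) and the small heat shock protein gene Hspb1 at 8.43 against 565 CPM (log2 ratio -6.07, -6.59 to -5.59), whereas the constitutive Hspa8 and Hsp90ab1 had log2 ratios of -0.06 and -0.08. The same direction was seen in alpha cells, and the 5-week beta cells stood above WT. Fos was at 3.89 CPM in 1-week and 1026 CPM in WT alpha cells and at 4173 CPM in 5-week beta cells, and Dnajb1 at 2251 CPM in 5-week beta cells. In the alpha cells 8 of 12 early genes and 7 of 12 heat shock genes were lower than in WT, beside 8 and 7 in the members over the same genes.

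**Figure D2:**
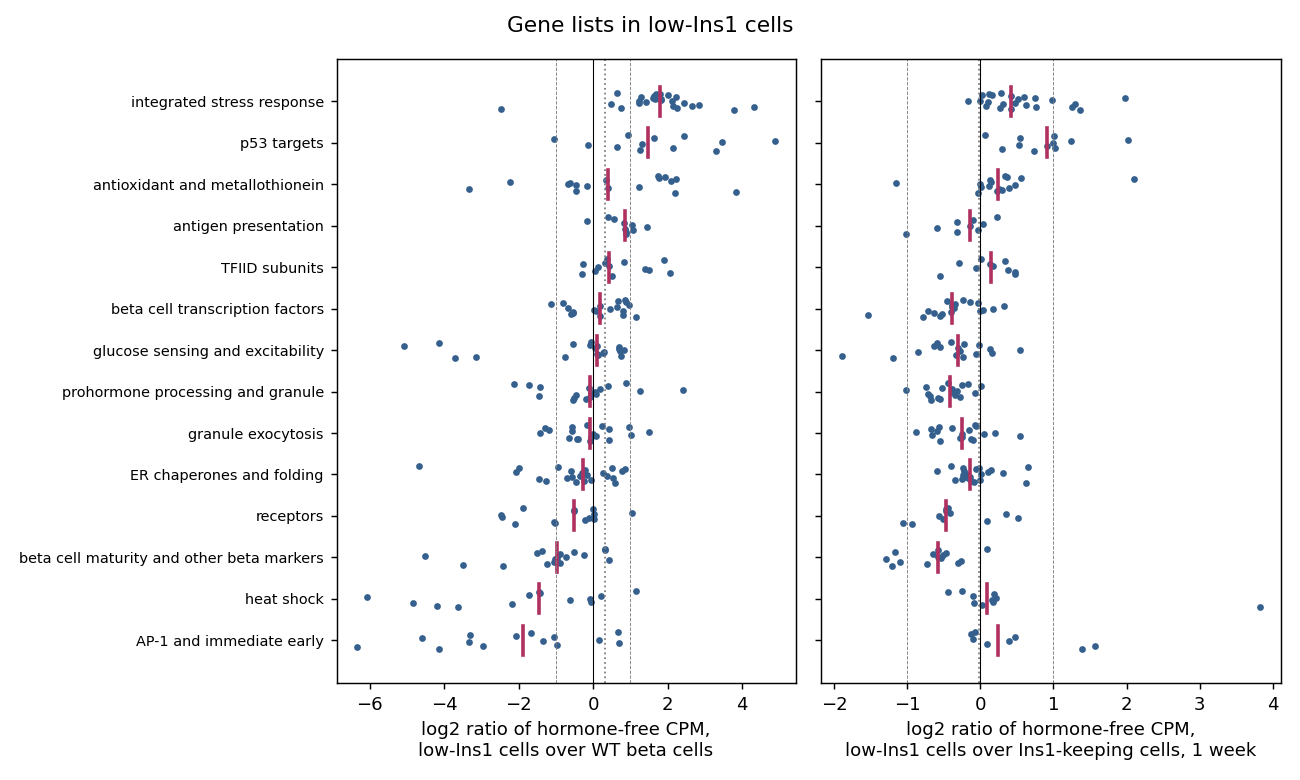
Log2 ratios of hormone-free CPM (x axis) for the genes of 14 lists (one dot a gene, red bar the median of the list) in low-Ins1 cells over WT beta cells on the left and over Ins1-keeping cells of the same library on the right; dashed lines mark 2-fold and the dotted line the median of all genes compared. The integrated stress response has its median at 1.81 over WT and 0.42 over Ins1-keeping cells. The list of beta cell maturity genes and other beta markers has it at -0.97 and -0.58.

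The genes of beta cell function moved unevenly against WT: the transcription factors stood near WT, and a few transporters, channels and receptors were far lower. Of 19 beta cell transcription factors 1 was 2-fold higher and 1 lower, with a median of 0.19. With only Ins1, Ins2, Gcg and Sst left out of the totals 6 were higher, with hormones kept 11 were higher, and after centring 3 were lower and none higher. Pdx1 was at 249.6 CPM in the members against 112 CPM in WT (log2 ratio 1.15, 1.00 to 1.30), a difference under 2-fold after centring, and Mafa at 706 against 402 CPM (log2 ratio 0.81, 0.73 to 0.89). St18, a zinc finger factor, was at 38.8 against 84.2 CPM (log2 ratio -1.12, -1.39 to -0.86), and at 26.8 against 74.9 CPM in 1-week and WT alpha cells. Of 12 of these factors compared in both cell types, 1 was higher and 3 lower in alpha cells, beside 0 and 1 in the members. Of 19 genes of glucose sensing and excitability none was higher and 4 were lower, but with hormones kept in the totals 9 were higher. Slc2a2, which encodes the glucose transporter GLUT2, was at 47.4 against 619 CPM (log2 ratio -3.71, -3.92 to -3.50), and G6pc2, the islet glucose-6-phosphatase that opposes glucokinase, at 144 against 1285 CPM (log2 ratio -3.16, -3.28 to -3.04). The channel genes Trpm5 and Kcnk16 were at 13.7 against 462 CPM and 6.98 against 124 CPM. Abcc8, the sulfonylurea receptor subunit of the ATP-sensitive potassium channel, was at 458 against 377 CPM, and the calcium pump gene Atp2a2 at 1064 against 1138 CPM. The list median was 0.09.

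Of 17 beta cell maturity genes and other beta markers none was higher and 8 were lower (median -0.97), and 12 were lower after centring. With hormones kept in the totals 3 were lower and 3 higher. With only Ins1, Ins2, Gcg and Sst left out of the totals 5 were lower. Ucn3, the peptide that marks mature mouse beta cells, was at 77.8 CPM in the members, 419 CPM in WT and 23.1 CPM in 5-week beta cells (log2 ratio over WT -2.43, -2.60 to -2.26). The imprinted Nnat was at 5.05 against 57.1 CPM and Npy at 12.3 against 283 CPM. Ero1lb, the oxidase that forms disulphide bonds in proinsulin, was at 628 against 1270.0 CPM, a log2 ratio of -0.11 with hormones kept. Only 5 of the 17 could be compared in alpha cells as well, so the alpha values say little of this list. Of 14 receptors 6 were lower and 1 higher, and with hormones kept in the totals 3 were lower and 1 higher. The prolactin receptor Prlr was at 204 against 1135 CPM (log2 ratio -2.48, -2.58 to -2.37). The incretin receptor Gipr was at 21.2 against 90.1 CPM (log2 ratio -2.09, -2.43 to -1.76). Igf1r was at 192 against 93.8 CPM (log2 ratio 1.03, 0.87 to 1.20), which was 0.72 after centring.

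The secretory machinery was closer to WT. Of 18 genes of prohormone processing 2 were higher and 4 lower (median -0.09), and of 19 exocytosis genes 2 were higher and 3 lower (median -0.09). Chga, the chromogranin of the granule core, was at 5789.5 against 5476 CPM and Scg2 at 2943 against 2854 CPM, while the granule peptide gene Vgf was higher at 61.1 against 11.5 CPM (log2 ratio 2.41, 2.00 to 2.84). Both signal peptidase genes on the list were lower, Spcs1 at 266 against 1171 CPM and Sec11c at 294 against 967 CPM. The calcium sensor Syt7 was at 218 against 77.8 CPM. Spcs1 and Sec11c were also lower in 1-week than in WT alpha cells, with 229 against 573 CPM and 118 against 270 CPM. Of 17 prohormone processing genes compared in both cell types, 1 was higher and 3 lower in alpha cells, beside 2 and 4 in the members. Of 24 ER chaperone and folding genes none was higher and 5 were lower (median -0.28). Manf, a secreted ER stress factor, was at 429 against 1791 CPM and Hspa5, which encodes the main ER chaperone BiP, at 1754 against 1167 CPM. In 1-week against WT alpha cells Manf was at 214 against 690 CPM and Hspa5 at 884 against 458 CPM. Of 21 ER genes compared in both, 2 were higher and 4 lower in alpha cells, beside 0 and 4 in the members. With hormones kept, 7 ER genes were higher and 3 lower, and 5 prohormone processing genes higher and 1 lower.

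The TFIID subunits around Taf4 were near or above WT. Of 13 compared, Taf4 included, 4 were 2-fold higher and none lower (median 0.42). The highest was Taf3, which reads the promoter mark H3K4me3, at 49.6 against 11.9 CPM (log2 ratio 2.06, 1.64 to 2.5), followed by Taf13 at 54.2 against 14.4 CPM (log2 ratio 1.91, 1.52 to 2.31) and Taf5 at 25.3 against 8.97 CPM (log2 ratio 1.49, 0.98 to 2.03). Of 13 transcription factors whose regulons the study followed, 4 were higher and none lower (median 0.66), Mafg for example at 129 against 54.6 CPM, but the study chose them on these libraries. Of 10 antigen presentation genes 3 were higher and none lower (median 0.87), with the class I gene H2-D1 at 497 against 236 CPM. After centring, H2-D1 was 0.76, Tap2 0.73 and Mafg 0.93, so that 1 of the 3 antigen presentation genes, H2-T23 (1.13), was still 2-fold higher. Of 6 TFIID subunits compared in both cell types, 2 were higher in 1-week than in WT alpha cells (median 0.19), beside 2 in the members (0.67). Of 11 regulon factors 4 were higher and 1 lower in alpha cells (0.85), beside 3 higher in the members (0.66). Of 7 antigen presentation genes 1 was higher and 1 lower in alpha cells (0.80), beside 2 higher in the members (0.87). The nuclear RNA Malat1 was at 37559 CPM in the members, 14068 in WT and 35055 CPM in 5-week beta cells. Of 81 cytosolic ribosomal protein genes 11 were higher and 1 lower (median 0.23), and the median of 75 nuclear subunits of oxidative phosphorylation was -0.33 with 5 higher and 7 lower. The 13 mitochondrially encoded genes had a median of -0.87 with 6 lower, led by mt-Atp8 at 42.6 against 394 CPM.

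The comparison within the 1-week library holds library and sequencing in common, and it asks how far members differed from beta cells that had kept Ins1. There were 87 such cells with a median of 43721 UMIs, but the UMIs left after the hormones were alike per cell, 16684 in the members and 14481 in Ins1-keeping cells. Far fewer genes differed than against WT: of 7034 compared, 63 were 2-fold higher (0.896%) and 47 lower (0.668%), with a median log2 ratio of -0.02. Which cells fell in which group was set by Ins1, and members shared their islets, so cells are not replicates and no test was made. The library pools 2 mice and no cell is assigned to a mouse, so each mouse's share of either group is not known.

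Mrln, G6pc2, Esr1, Dapl1 and Mafa had the lowest ratios over Ins1-keeping cells. Mafa, which binds the insulin promoters, was at 706 CPM in the members and 2037 CPM in Ins1-keeping cells (log2 ratio -1.53, -1.61 to -1.45). Over single cells Mafa had a median of 286 CPM in the members, with quartiles of 96.6 and 929 CPM, and a median of 1504 CPM, with quartiles of 816 and 2668 CPM, in Ins1-keeping cells, so the ranges overlapped. Summed over cells, the Mafa of the members was thus above that of WT, by less than 2-fold, and below that of their Ins1-keeping neighbours. The median member, at 286 CPM, lay far below the summed level of the members. Mafa in single WT cells was not described, so where single members stood against them is not known. G6pc2 was at 144 against 533 CPM (log2 ratio -1.89, -2.05 to -1.72), the oestrogen receptor gene Esr1 at 66.9 against 214 CPM (log2 ratio -1.67, -1.92 to -1.43) and Mrln, a small inhibitor of the SERCA calcium pump, at 21.4 against 103 CPM (log2 ratio -2.27, -2.67 to -1.87). Dapl1, Spock1, C1qa, Zc3h3, Tmsb15b2 and Hs3st6 completed the lowest 10, with log2 ratios from -1.58 to -1.38. Of 19 beta cell transcription factors Mafa alone passed 2-fold, but 16 lay below 0 and the median was -0.38, against -0.02 over all genes. In the glucose sensing list 14 of 17 lay below 0 with 2 lower (median -0.30), in the maturity list 13 of 14 with 4 lower (median -0.58), in prohormone processing 17 of 18 with 1 lower (median -0.42) and in exocytosis 15 of 18 with none lower (median -0.25). Slc2a2 was at 47.4 against 108 CPM (log2 ratio -1.19, -1.51 to -0.86) and Ucn3 at 77.8 against 179 CPM (log2 ratio -1.20, -1.45 to -0.95), so both stood below WT in the Ins1-keeping cells already and lower again in the members. These calls depend on leaving the hormones out of the totals. With hormones kept, the log2 ratios over Ins1-keeping cells were -0.68 for Mafa, -0.34 for Slc2a2 and -0.36 for Ucn3. No gene of the list of maturity genes and other beta markers was then 2-fold lower.

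Id3 had the highest ratio over Ins1-keeping cells. This gene, which blocks basic helix-loop-helix factors and is a target of BMP signalling, was at 233 CPM in the members (968 UMIs) and 3.17 CPM in Ins1-keeping cells (4 UMIs), a log2 ratio of 6.20 (4.84 to 8.08). It was at 7.02 CPM in WT beta cells, 10.9 CPM in 5-week beta cells and 319.9 CPM in the deep alpha cells. Among single members its median was 0, its upper quartile 231 CPM and its highest value 2951 CPM, so most members held no UMI of it. Id2 was at 213 against 42.1 CPM (log2 ratio 2.34, 1.94 to 2.77) and Smad7, the inhibitory SMAD, at 74.1 against 11.1 CPM (log2 ratio 2.74, 1.97 to 3.63). Phlda3 (log2 ratio 2.02, 1.5 to 2.59), Nupr1 (log2 ratio 1.98, 1.87 to 2.08), the haem oxygenase Hmox1 (log2 ratio 2.11, 1.60 to 2.66), the glycogen-binding Stbd1 (log2 ratio 2.16, 1.49 to 2.91), Sema6a (log2 ratio 2.18, 1.40 to 3.07) and Steap1 (log2 ratio 2.33, 1.24 to 3.68) were higher as well. The Sema6a ratio depended on summing UMIs: with the mean of the share of each cell it was 0.49, under 2-fold. Hspa1a had a log2 ratio of 3.82, but 67.4% of its UMIs in the members came from 1 cell. Among 23 integrated stress response genes 4 were higher and none lower (median 0.42, 21 above 0). A shift of that size was not particular to them: the 81 cytosolic ribosomal protein genes had a median of 0.42, with 80 above 0 and none 2-fold higher. The 13 mitochondrially encoded genes had a median of -0.71, with 12 below 0 and 2 lower. Among 11 p53 targets 4 were higher and all 11 above 0 (median 0.92). The share above 0 over all genes was not counted. The count of p53 targets fell to 1 without barcodes over 50000 UMIs, where Gdf15 had a log2 ratio of 0.37, and to 2 with mt- genes also left out of the totals, and it was 10 with hormones kept. In contrast Mt1 and Mt2 had log2 ratios of -0.04 and 0.23, and the medians of the AP-1 and heat shock lists were 0.25 and 0.09, with 2 of 8 AP-1 genes (Fos at 1.38 and Jun at 1.57) and 2 of 11 heat shock genes (Hspa1a and Hspa1b) higher and none lower. Fos was 0.53 without barcodes over 50000 UMIs, and most UMIs of Hspa1b in the members also came from 1 cell, with none in Ins1-keeping cells. Among cells with 15000 or more UMIs no heat shock gene that passed the UMI minimum was 2-fold higher. None of the 10 TFIID subunits compared differed 2-fold between the groups.

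**Figure D3:**
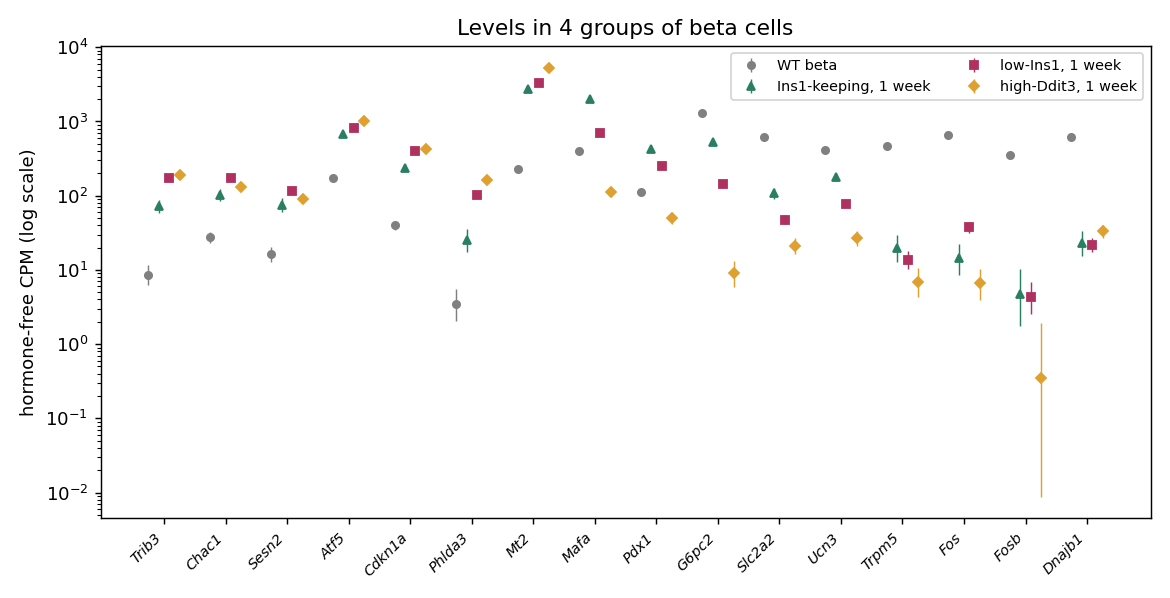
Hormone-free CPM (log y axis) of 16 genes in WT beta cells and in Ins1-keeping, low-Ins1 and high-Ddit3 cells of the 1-week library, with exact Poisson 95% intervals as bars. Fos, Fosb and Dnajb1 lie below WT in all 3 of the 1-week groups, whereas Mafa, Pdx1, G6pc2, Slc2a2 and Ucn3 step down from Ins1-keeping to low-Ins1 to high-Ddit3 cells.

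Among the members several of the genes named above were graded with the Ins1 share. Mafa, G6pc2, Id3 and Nupr1 had been named for their ratio over Ins1-keeping cells. Their step from the members to the groups beyond the limit was set by that choice and is no further support. Cells were grouped by Ins1 at under 1% (142 members), 1 to 2% (48) and 2 to 4% (59), with 4 to 8% (54) and 8% or more (33) beyond the limit. Mafa was at 488, 740.5 and 1248 CPM in the 3 member groups and at 1848 and 2347 CPM beyond. G6pc2 ran from 98.8 through 166 to 246 CPM among members and to 609.8 CPM in the highest group, and Slc2a2 from 31.2 through 54.4 to 84.3 CPM and then to 117 CPM. Both are needed for, or modulate, the beta cell's reading of glucose. Nkx6-1 covered a narrower range, from 397 to 506 CPM in members and 723 CPM at the top, and Ucn3 went from 58.7 to 107 CPM and then 220.0 CPM. Id3 ran the other way, at 328, 135 and 61.1 CPM among members, 5.11 CPM at 4 to 8% and without a UMI at 8% or more. Nupr1 was at 2848, 2614 and 1385 CPM and then at 885 and 207 CPM, and Trib3 fell in the same order from 199.9 to 46.1 CPM. Ddit3 did not follow that order inside the members, at 1857, 2196 and 1879 CPM. Of 480 genes of the lists and the named genes with 30 or more UMIs, 45 rose and 91 fell in every step from the lowest to the highest Ins1 group, and 344 did neither. Some of the 480 were chosen on this same contrast, and the share over all genes was not counted. These counts therefore do not say whether such genes were more frequent here than elsewhere. Ins2 had a median of 17.9% in the group under 1% Ins1, 41.0% at 1 to 2% and 50.5% at 2 to 4%, so the cells with least Ins1 were those with least Ins2. Median depth went with Ins1 as well, from 24263 to 45625 UMIs, while the UMIs left after the hormones were 17399 per cell in the lowest and 14462 in the highest group. The part of depth in these gradients was not tested.

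**Figure D4:**
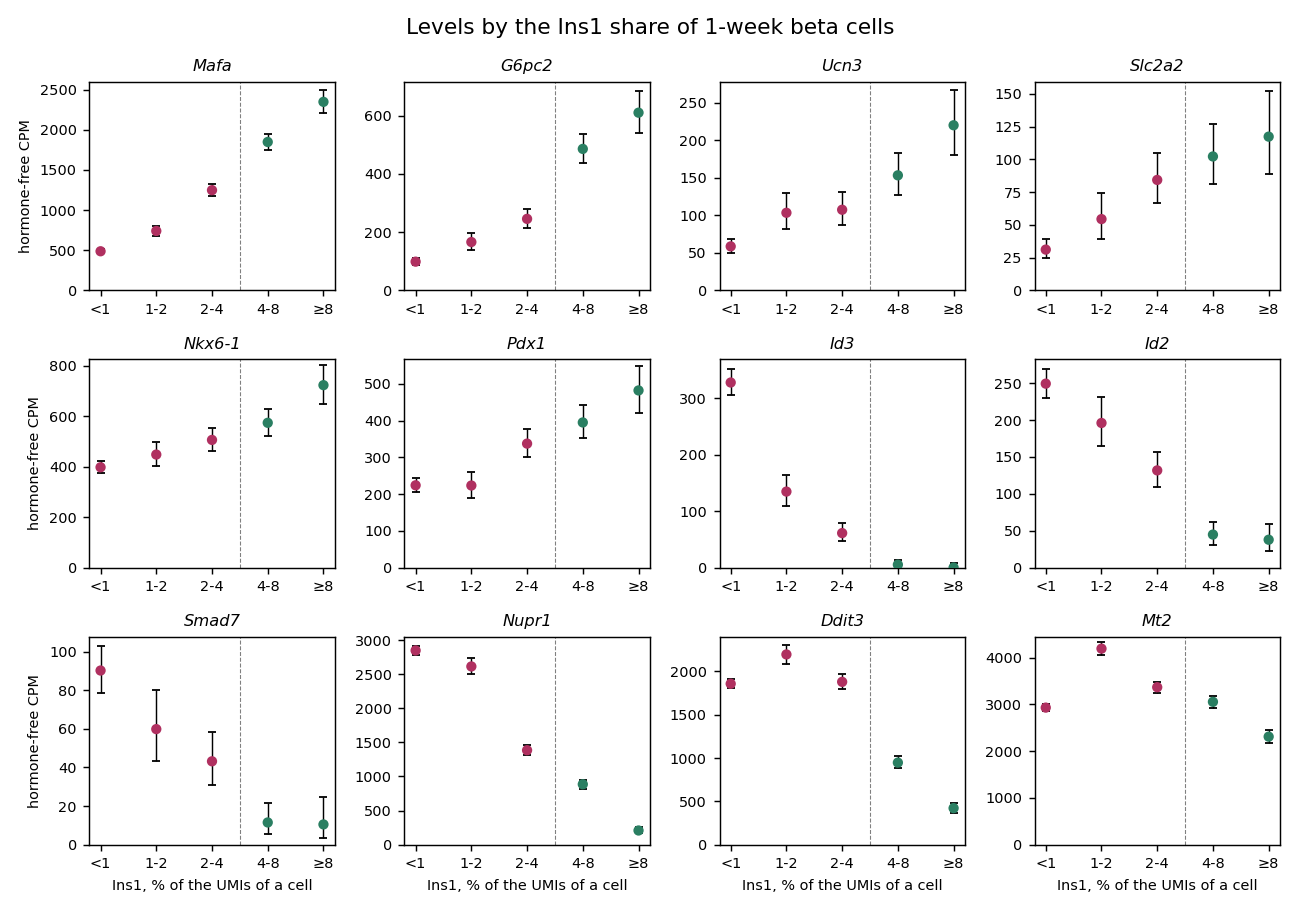
Hormone-free CPM (y axes, each from 0) of 12 genes in 1-week beta cells grouped by the Ins1 percent of a cell (x axis), with exact Poisson 95% intervals as bars; red points are the 3 groups of low-Ins1 cells and green points the 2 groups beyond the 4% limit. Mafa, G6pc2, Ucn3, Slc2a2 and Nkx6-1 rise from left to right, Id3, Id2, Smad7 and Nupr1 fall, and Ddit3 and Mt2 peak in the 1 to 2% group. Mafa, G6pc2, Id3, Id2, Smad7 and Nupr1 were named for their ratios over the cells of the green points.

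The members also differed from the 164 cells that the Ddit3 limit had set apart, in which Ins1 was 0.572% and Ins2 22.97% of the UMIs. Of 7589 genes compared, 195 were 2-fold higher in the members (2.57%) and 51 lower (0.672%). Mafa was at 706 CPM in the members and 112 CPM in the high-Ddit3 cells (log2 ratio 2.66, 2.49 to 2.83), G6pc2 at 144 against 9.07 CPM (log2 ratio 3.99, 3.43 to 4.62) and Pdx1 at 249.6 against 49.9 CPM (log2 ratio 2.32, 2.07 to 2.59). Of 19 beta cell transcription factors 5 were higher in the members and 18 lay above 0, and of 17 glucose sensing genes 5 were higher. The 13 mitochondrially encoded genes showed a median of 1.80 with 12 higher, mt-Co2 for example at 4562 against 811 CPM, although both groups passed the same mt- limit. Hspa5 was lower in the members, at 1754 against 4710.4 CPM (log2 ratio -1.43, -1.47 to -1.38), but of 24 integrated stress response genes 4 were lower, none higher and the median was -0.07. Ddit3 is among those 4 by the rule. Trib3 was at 173 and 190.1 CPM and Id3 at 233 and 316 CPM in the members and the high-Ddit3 cells.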

How the data were processed

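Islets of 1 WT mouse and, pooled in each case, of 2 mutant mice at 1 week and at 5 weeks were dissociated, sorted for live cells and captured with 10X Genomics Chromium 3′ chemistry. The deposited files hold counts: the authors aligned reads to mm10 with Cell Ranger 3.1 and gave raw UMI counts per gene and barcode. They removed doublets and scaled down to 12000 cells in WT only, and no doublet caller was run here. Limits on detected genes and on mitochondrial reads are also described for their analysis, without saying whether the deposited counts had passed them.

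Members and comparison groups were chosen by UMI shares, as given above. UMIs were summed per group with Python 3.11.15, numpy 2.4.6, pandas 2.3.3 and scipy 1.17.1, and divided by the total without 8 hormones. Genes listed in both tables with 100 or more UMIs in both groups together were compared. No test was made, since each group is 1 library. The ratio step was tested on simulated data. The members and the gene lists were chosen with earlier results of these data known.

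Genes named were Taf4, the label's markers, the 15 highest and 15 lowest ratios over WT, the 10 highest and 10 lowest over Ins1-keeping cells (3 or more UMIs in each group), and from each list the 3 largest ratios and the 2 highest levels. Asns, Chac1, Aars, Gars, Vldlr and the Y-linked gene lie outside that rule, as does the alpha cell comparison, and were chosen after seeing the data. The letters TGATGNAA were searched on both strands in the 250 bases before RefSeq starts. Alternatives changed the depth, Ins1 and mt- limits, the totals, the UMI minimum, the centring and the WT cells used.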

Additional observations from a re-analysis of the deposited data

How the results depend on the processing

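Every alternative kept the number of members within 1.5 times the reported 249, from 190 with Ins1 under 2% to 283 with 4000 or more UMIs. The counts of genes against WT depended on the totals and the gene minimum. With hormones kept in the totals 5102 genes were higher and 201 lower, and with only Ins1, Ins2, Gcg and Sst left out 2220 were higher. Centring on the median ratio gave 627 higher and 934 lower. A minimum of 30 UMIs gave 883 lower, and one of 500 UMIs gave 412 higher and 282 lower, since other numbers of genes were then compared. Thinning each cell to 500 UMIs left after the hormones gave 408 higher, with 3774 of the WT beta cells left out as too shallow and fewer genes past the minimum. Against Ins1-keeping cells, hormones kept in the totals gave 2085 higher and 2 lower, a minimum of 30 UMIs gave 195 and 197, and one of 500 UMIs gave 14 and 15. Leaving out barcodes over 50000 UMIs ended 7 of the calls of named genes over Ins1-keeping cells. No named gene that was called changed sign under any of these alternatives. Leaving out, for each named gene, the member with the most UMIs of it was added after seeing the data, and Igf1r was the only called gene to lose its 2-fold difference from WT (0.99). No paired analysis was possible because each group is 1 library. Depth limits the WT side: its deepest beta cell held 9093 UMIs, while members held from 8115 UMIs with a median of 26375, and genes under 100 UMIs in both groups together are not described.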

Other observations

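Beta cells at 5 weeks, of which most also lay under 4% Ins1, stood apart from the members in the stress genes and beside them in part of the beta cell genes. The integrated stress response list summed to 9863 CPM in the members, 4794 CPM in 5-week beta cells and 2535 CPM in WT beta cells. Nupr1 was at 2472, 126 and 528 CPM in that order, Trib3 at 173, 15.2 and 8.58 CPM, and Id3 at 233, 10.9 and 7.02 CPM. Mafa, by contrast, was at 706 CPM in the members and 639.7 CPM at 5 weeks, and Pdx1 at 249.6 and 250.2 CPM. Slc2a2 was at 47.4 CPM in the members and 7.06 CPM at 5 weeks, and Trpm5 at 13.7 and 4.33 CPM, so for these genes the 5-week cells were the farther from WT. The early gene list summed to 1704 CPM in the members, 15507 CPM at 5 weeks and 3877 CPM in WT, and the heat shock list to 4932, 25495 and 9648 CPM. The 5-week group was chosen by the limits of the WT beta cells and is shallower than the members, and no test was made.

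Smaller lists gave few genes with enough UMIs. Of 5 progenitor and dedifferentiation genes compared with WT, Cd81 was 2-fold higher (215 against 63.4 CPM), while Sox4 (31.3 against 84.0 CPM) and Tspan8 (3.13 against 23.6 CPM) were lower. Of 3 cell cycle genes Ccnd1 was at 59.7 against 120.1 CPM, a log2 ratio at the 2-fold limit (-1.01) that 5 alternatives moved inside it, and Ccnd2, the main D-type cyclin of mouse beta cells, was at 933 against 707 CPM. The 2 ductal keratins Krt7 and Krt18 were at 423 against 227 and 238 against 324 CPM.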
